A study of Arabidopsis thaliana with 6 samples.

Results

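The 10 genes described here encode proteins that loosen or remodel plant cell walls. They are 5 alpha-expansins (EXPA1, EXPA4, EXPA5, EXPA8 and EXPA10) and 5 xyloglucan endotransglucosylase/hydrolases (XTH4, XTH5, XTH15, XTH22 and XTH24). They were chosen by locus identifier from a named list, and all 10 were among the 33323 loci of the deposited expression table. Whole Arabidopsis thaliana seeds were dissected from the silique at 6 days after pollination and their polyadenylated RNA was sequenced. DD25::IaaH seeds came from self-pollinated transgenic plants, in a background labelled Col-0 (3 libraries). WT seeds came from self-pollinated Col-0 plants (3 libraries). IaaH is a bacterial amidohydrolase whose substrate is indole-3-acetamide and whose product is auxin. The DD25 promoter that drives it is known for activity in the central cell and early endosperm. The labels mention no feeding with indole-3-acetamide, and they do not say how many transgenic lines were used. The design text calls the 3 libraries of each genotype biological replicates. A seed at this stage holds seed coat, endosperm and embryo together, so that a change in the RNA of a cell type and a change in the share of those cells cannot be told apart.

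Growing plant cells are held by a wall of cellulose microfibrils that xyloglucan chains bind and bridge. Expansins are secreted proteins that let these polymers slip past each other in an acidified wall, without cutting them. XTH enzymes cut xyloglucan and rejoin the cut end to another xyloglucan chain, or to water. Auxin is known for promoting wall acidification by plasma membrane proton pumps and for raising the transcripts of several expansins and XTHs in growing shoots. In developing seeds, growth of the endosperm and expansion of the seed coat set much of the final seed size.

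Among the 10 genes, XTH24 was higher in DD25::IaaH seeds, at 259 ± 24.2 RPKM (SD, n = 3), against 100.3 ± 28.4 RPKM in WT seeds (SD, n = 3). EXPA4, EXPA10 and XTH15 were lower, at 14.8, 14.6 and 0.602 RPKM in DD25::IaaH seeds, against 28.5, 22.2 and 2.25 RPKM in WT seeds. RPKM is the authors' unit, the number of reads per kilobase of gene and per mega (M) of reads in the library. A gene was called when limma's adjusted p, computed over 20880 tested genes, was under 0.05. Of the 9 members tested, 1 was called higher and 3 were called lower. The background, counted over every gene tested, was 8.25% higher and 6.72% lower. The median log2 fold change (DD25::IaaH minus WT) was -0.39 for the 9 members and 0.03 for all tested genes. EXPA1, EXPA5, XTH4, XTH5 and XTH22 were not called, and EXPA8 lay below the minimum level for testing.

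The 6 libraries held between 6.50 and 17.8 M reads (M for mega) assigned to loci, as computed from the steps in their RPKM values. The first principal component took 68.4% of the variance and separated the genotypes. The second, with 12.0%, set WT 3 apart from the other libraries. Of 3911 annotated pseudogenes, 82.1% had a read in WT 1 and 63.8% in WT 2, while the remaining 4 libraries ranged from 21.3% to 32.9%. Endosperm markers summed to between 109 and 146 RPKM in DD25::IaaH seeds and between 37.2 and 46.7 RPKM in WT seeds, and 5 of 7 were called higher. PHE1 carried most of that gap, with 76.5 RPKM in DD25::IaaH seeds and 3.50 RPKM in WT seeds, and ZOU, at 28.8 RPKM in DD25::IaaH seeds and 33.5 RPKM in WT seeds, was not called. Seed coat markers summed to between 2939.6 and 3281 RPKM in DD25::IaaH seeds and between 1941 and 2715 RPKM in WT seeds, and 2 of 6, BAN and TT12, were called higher. TT4 had the most of that sum and was not called (adjusted p = 0.0744), and MUM4 was lower without overlap, at 339 RPKM in DD25::IaaH seeds and 449 RPKM in WT seeds, and missed the threshold (adjusted p = 0.0534). With limma voom 3 seed coat markers were called higher and 1 lower. Of the embryo markers 5 of 6 were tested and 1 was called lower. Pollen markers summed to at most 2.52 RPKM in DD25::IaaH seeds and 2.72 RPKM in WT seeds, and fruit wall markers to at most 22.0 RPKM in DD25::IaaH seeds and 30.0 RPKM in WT seeds. Of each of these lists 2 of 4 genes were tested, with 0 called by limma, 0 at an unadjusted p under 0.05 and 0 called by limma voom. None of the markers was at 0 in all 6 libraries. The part of these cell types in the members' values was not tested.

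The bases just upstream of the genes are shown for EXPA4, EXPA10 and XTH15, the members called lower, because these are where a shared regulatory motif would be looked for first, and for EXPA5, because its window holds 2 copies of an auxin response motif. Each line gives the 250 bases before the annotated start of the gene in RefSeq's TAIR10.1, read 5′ to 3′ on the gene's own strand, with matches to the motifs searched in capitals. The windows are chr2:16545747-16545996 for EXPA4, chr3:11013452-11013701 for EXPA5 and chr4:8138393-8138642 for XTH15, all for genes on the minus strand, and chr1:9259182-9259431 for EXPA10, on the plus strand. No annotated gene overlaps any of these windows.
EXPA4: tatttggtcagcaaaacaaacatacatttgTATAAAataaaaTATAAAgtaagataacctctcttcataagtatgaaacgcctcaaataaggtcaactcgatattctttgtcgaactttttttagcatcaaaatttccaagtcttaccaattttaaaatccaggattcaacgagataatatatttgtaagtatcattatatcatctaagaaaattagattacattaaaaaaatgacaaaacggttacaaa
EXPA10: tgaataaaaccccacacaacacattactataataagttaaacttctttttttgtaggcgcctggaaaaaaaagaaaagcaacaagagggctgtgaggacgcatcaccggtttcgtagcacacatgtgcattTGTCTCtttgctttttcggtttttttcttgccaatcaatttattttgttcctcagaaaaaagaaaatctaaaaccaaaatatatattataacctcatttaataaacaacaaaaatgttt
EXPA5: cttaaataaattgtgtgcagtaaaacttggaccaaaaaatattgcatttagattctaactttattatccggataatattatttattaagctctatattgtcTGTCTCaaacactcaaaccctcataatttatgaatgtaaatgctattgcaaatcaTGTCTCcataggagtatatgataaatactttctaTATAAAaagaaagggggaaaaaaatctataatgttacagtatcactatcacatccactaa
XTH15: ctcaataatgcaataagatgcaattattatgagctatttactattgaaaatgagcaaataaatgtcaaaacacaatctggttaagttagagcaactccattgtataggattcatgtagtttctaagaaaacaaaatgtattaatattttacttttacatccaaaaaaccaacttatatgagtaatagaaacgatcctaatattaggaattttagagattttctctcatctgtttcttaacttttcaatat

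The motifs searched were 4 in number and were looked for on both strands in the 250-base windows of 27443 protein-coding genes. The first was TGTCTC, the auxin response element. The next was TGTCGG, a variant that auxin response factors also bind. The others were the G-box CACGTG, bound by light- and growth-related bHLH and bZIP factors, and the TATA box core TATAAA. The auxin response element and its variant share their first 4 letters, and no matches in the members overlapped each other. TGTCTC occurred in 2 of the 9 members searched, in EXPA5 at 149 and 94 bases before the start and in EXPA10 at 119 bases before it, and in 10.9% of all windows. TATAAA occurred in EXPA4 at 220 and 208 bases before the start, in EXPA5 at 60 and in XTH22 at 74. It occurred in 47.3% of all windows. TGTCGG occurred in 0 of the 9 members and in 4.16% of all windows. CACGTG likewise occurred in 0 members and in 6.49% of all windows. The window of XTH15, the called member with the most negative fold change, held none of these letter strings. A match is a run of letters in this window and not a measured binding site.

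The alpha-expansins are described first. EXPA4 (AT2G39700) had 13.2, 16.1 and 15.2 RPKM in DD25::IaaH 1, 2 and 3, against 26.5, 36.0 and 22.9 RPKM in WT 1, 2 and 3. All DD25::IaaH libraries lay below all WT libraries, and WT 2 was the highest of the 6. The log2 fold change was -0.90 ± 0.18 (SE, limma adjusted p = 0.0103), or 1.92-fold lower in the ratio of means. EXPA4 was called in each fit that left out a single library, and it was not called without WT 1 and WT 2 together (log2 fold change -0.62, adjusted p = 0.196).

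EXPA10 (AT1G26770), known for its effects on leaf growth and pedicel breakage, had 17.8, 13.0 and 13.0 RPKM in DD25::IaaH 1, 2 and 3, against 21.4, 22.0 and 23.3 RPKM in WT 1, 2 and 3. The groups did not overlap, the WT libraries lay close together, and DD25::IaaH 1 was the nearest to them. The log2 fold change was -0.61 ± 0.15 (SE, limma adjusted p = 0.0295), or 1.53-fold lower. The call was lost in 5 of the 6 fits without a single library, namely DD25::IaaH 2, DD25::IaaH 3, WT 1, WT 2 or WT 3, with adjusted p between 0.0507 and 0.101. It was also lost without a variance trend (adjusted p = 0.0566) and when WT 1 and WT 2 were both left out (adjusted p = 0.274), while the log2 fold change ranged from -0.75 to -0.53 over all alternatives.

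EXPA1 (AT1G69530), an expansin known from guard cell walls, had 3.85, 2.75 and 4.39 RPKM in DD25::IaaH 1, 2 and 3, against 5.70, 7.02 and 5.20 RPKM in WT 1, 2 and 3. The groups did not overlap, yet the gene missed the threshold, with a log2 fold change of -0.65 ± 0.22 (SE, limma adjusted p = 0.0814). The 95% confidence interval of the log2 fold change, unadjusted for the number of genes, ran from -1.14 to -0.16. Adjusted p stayed between 0.0683 and 0.539 under the 16 alternatives, and all 16 values of the fold change were below 0. EXPA1 and EXPA10 had fold changes of similar size. EXPA1 rests on 25 to 142 reads in a library and EXPA10 on 118 to 533. The part of read number in their unlike calls was not tested.

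EXPA5 (AT3G29030), an expansin linked to brassinosteroid-dependent growth, had 11.9, 10.6 and 11.5 RPKM in DD25::IaaH 1, 2 and 3, against 16.2, 19.3 and 10.7 RPKM in WT 1, 2 and 3. WT 3 lay within the DD25::IaaH range, so the groups overlapped through that library alone. Its log2 fold change was -0.39 ± 0.21 (SE, limma adjusted p = 0.256), with a 95% interval from -0.86 to 0.08. The result turned on the WT libraries: without WT 3 the gene was called lower (log2 fold change -0.62, adjusted p = 0.0234), whereas leaving out both WT 1 and WT 2 reversed the sign (0.075, adjusted p = 0.870).

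EXPA8 (AT2G40610) had 0 reads in DD25::IaaH 1, 2 and 3, against 14, 2 and 0 reads in WT 1, 2 and 3, or 0.712, 0.202 and 0 RPKM. The WT 1 value was above the level of 3 reads, which for this gene is 0.153 RPKM in WT 1 and between 0.253 and 0.418 RPKM in the DD25::IaaH libraries. WT 2 was below its own level of 3 reads, 0.303 RPKM. Counts of 0 in the DD25::IaaH libraries therefore allow levels at least up to these limits. Counted in single reads, the limits lie below the WT 1 value but above the WT 2 and WT 3 values. They would be higher if the mates of a read pair were counted separately. Whether the genotypes differ therefore cannot be told. Both libraries with EXPA8 reads were those in which most pseudogenes also had reads, and the part of that feature in the value was not tested. With no minimum level the fit gave a log2 fold change of -0.59 (limma adjusted p = 0.312), a value that depends on the pseudocount and is no bound.

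**Figure D1:**
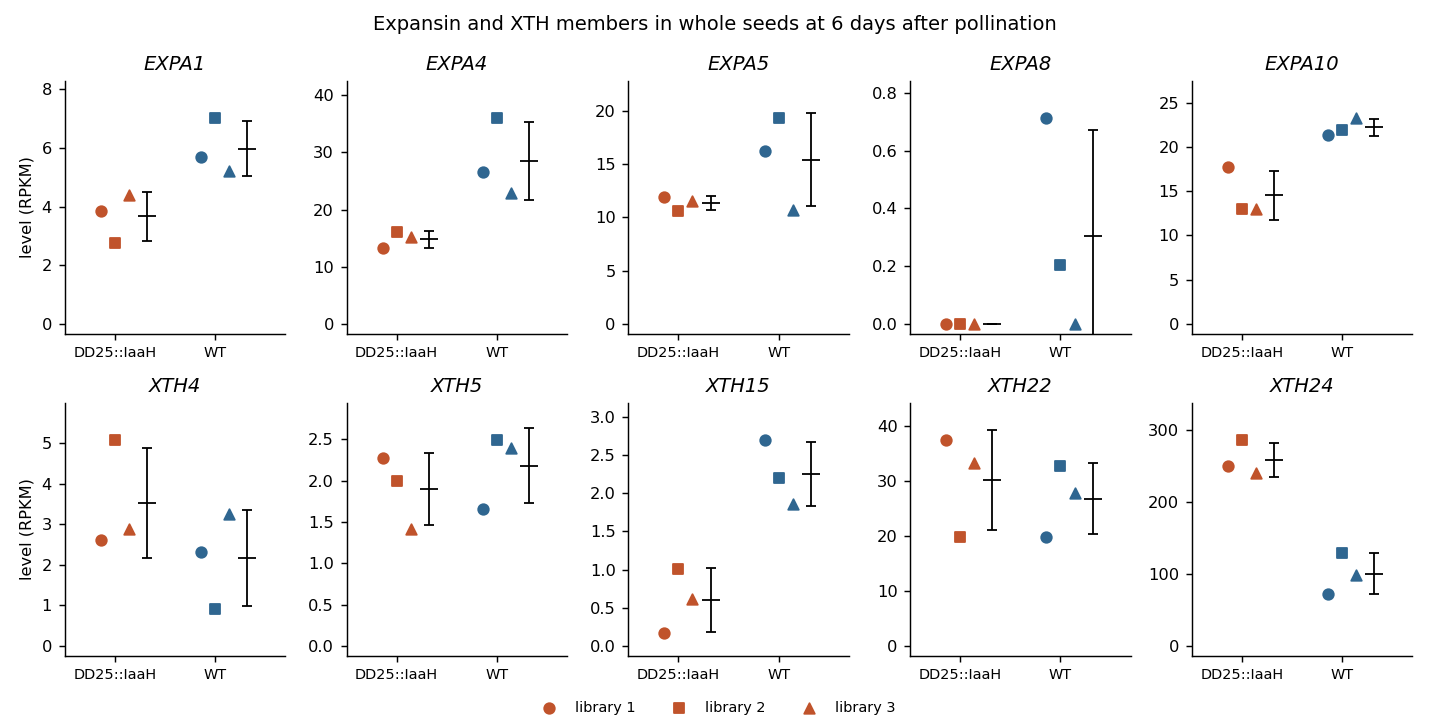
Level in RPKM (vertical axis, linear, with a scale of its own in each panel) of the 10 genes in the 3 DD25::IaaH libraries (orange, left) and the 3 WT libraries (blue, right) of whole seeds at 6 days after pollination. Circles, squares and triangles are libraries 1, 2 and 3 of either genotype and black bars are means with SD (n = 3), the lower arm for EXPA8 in WT running off the panel; XTH24 lies above WT in every DD25::IaaH library, and EXPA1, EXPA4, EXPA10 and XTH15 lie below it.

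The plot of levels by library shows lower mean levels in DD25::IaaH seeds for the 4 tested alpha-expansins, of which EXPA5 overlapped between genotypes. Their log2 fold changes were -0.90 for EXPA4, -0.65 for EXPA1, -0.61 for EXPA10 and -0.39 for EXPA5, of which 2 were called. Summed over all 5, EXPA members reached 46.7, 42.5 and 44.1 RPKM in DD25::IaaH 1, 2 and 3, against 70.6, 84.5 and 62.2 RPKM in WT 1, 2 and 3. The DD25::IaaH sums lay close together and below every WT sum. Of the 9 tested members, 4 were lower and 1 was higher with no overlap between groups, shares to be set beside 14.9% and 18.4% of all tested genes.

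Among the XTH members, XTH24 (AT4G30270), first described as a meristem transcript named MERI5, was the most abundant. It had 249.8, 286 and 240.1 RPKM in DD25::IaaH 1, 2 and 3, against 72.7, 129 and 98.9 RPKM in WT 1, 2 and 3. The lowest DD25::IaaH library was well above the highest WT library, WT 2. This gave a log2 fold change of 1.40 ± 0.20 (SE, limma adjusted p = 0.00163), or 2.58-fold higher in the ratio of means. XTH24 was called under all 16 alternatives, with log2 fold changes from 1.19 to 1.60 and adjusted p from 0.000429 to 0.0217. It rests on 1147 to 3241 reads in a library.

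XTH15 (AT4G14130), a xyloglucan endotransglucosylase known from shade-induced petiole growth, had 0.175, 1.01 and 0.619 RPKM in DD25::IaaH 1, 2 and 3, against 2.69, 2.20 and 1.86 RPKM in WT 1, 2 and 3. The groups did not overlap, and DD25::IaaH 1 was the lowest library. These levels rest on 2, 7 and 6 reads in the DD25::IaaH libraries, against 51, 21 and 19 reads in the WT libraries. The DD25::IaaH 1 value was under its level of 3 reads, 0.262 RPKM. The log2 fold change was -1.39 ± 0.35 (SE, limma adjusted p = 0.0302) and understates the ratio of means, in which XTH15 was 3.74-fold lower. With a pseudocount of 0.1 it was -1.95, and with limma voom on whole reads -2.23. The call was lost without DD25::IaaH 1, DD25::IaaH 3, WT 1 or WT 2 (adjusted p from 0.0747 to 0.106), and when WT 1 and WT 2 were both left out (adjusted p = 0.353).

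XTH22 (AT5G57560), the touch-induced gene TCH4, had 37.4, 19.9 and 33.2 RPKM in DD25::IaaH 1, 2 and 3, against 19.8, 32.7 and 27.9 RPKM in WT 1, 2 and 3. The groups overlapped over nearly their whole range, and each had 1 library well below the other two. Its log2 fold change was 0.15 ± 0.26 (SE, limma adjusted p = 0.760), with a 95% interval from -0.43 to 0.73. Its sign was negative without DD25::IaaH 1 (-0.030) and without WT 1 (-0.050), so no direction can be given.

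XTH4 (AT2G06850), which acts with XTH9 in the walls of woody xylem, had 2.61, 5.07 and 2.90 RPKM in DD25::IaaH 1, 2 and 3, against 2.32, 0.920 and 3.26 RPKM in WT 1, 2 and 3. WT 3 lay above 2 of the DD25::IaaH libraries, and the extremes of both groups were their second libraries. The log2 fold change was 0.66 ± 0.39 (SE, limma adjusted p = 0.305), with a 95% interval from -0.22 to 1.53, which leaves room for a change as large as that of XTH24. XTH5 (AT5G13870), a close relative of XTH4, had 2.27, 1.99 and 1.42 RPKM in DD25::IaaH 1, 2 and 3, against 1.66, 2.49 and 2.39 RPKM in WT 1, 2 and 3. The groups overlapped, and the log2 fold change was -0.16 ± 0.26 (SE, limma adjusted p = 0.734), with a 95% interval from -0.75 to 0.42.

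The 5 XTH members were thus spread over both directions, with 1 called higher, 1 called lower and 3 with overlapping groups. Their summed level was 292, 314 and 278 RPKM in DD25::IaaH 1, 2 and 3, against 99.2, 168 and 134 RPKM in WT 1, 2 and 3. XTH24 made up most of this sum in every library.

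**Figure D2:**
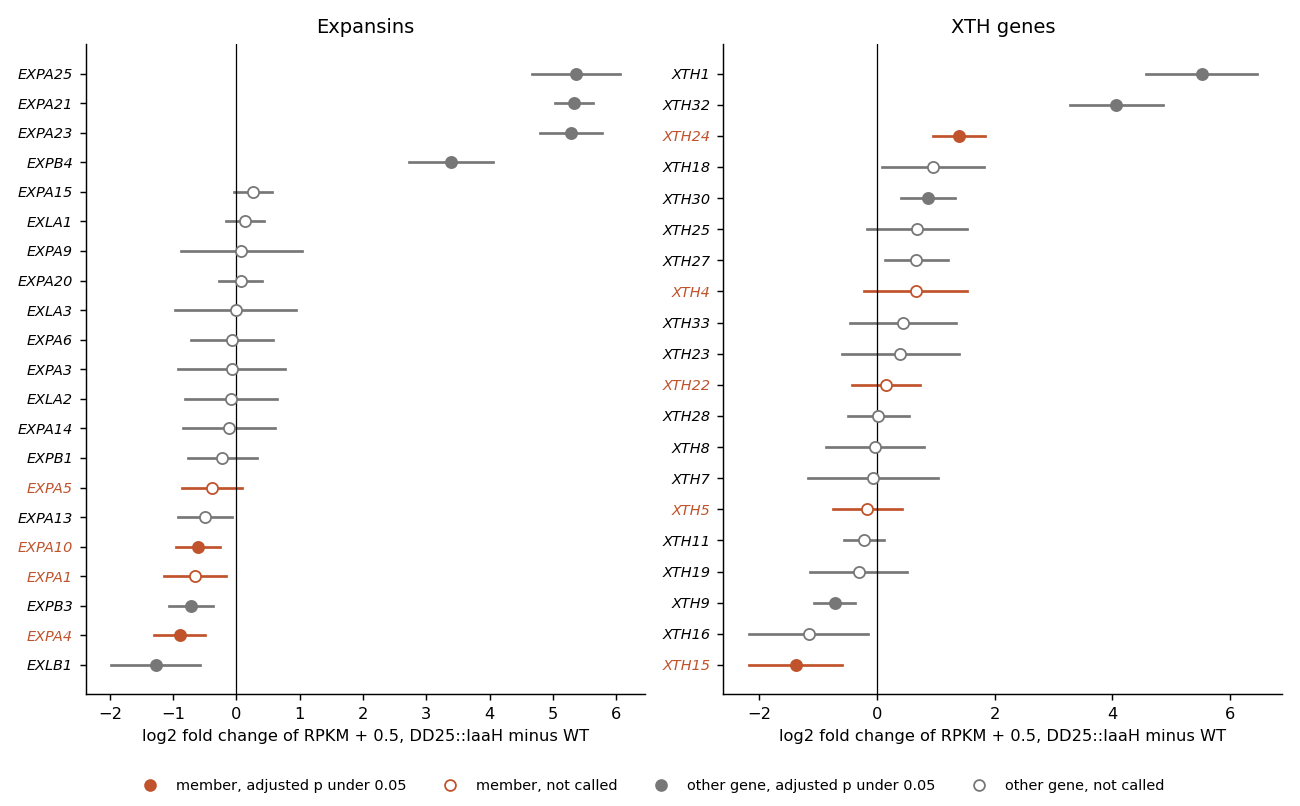
Log2 fold change of RPKM + 0.5, DD25::IaaH minus WT (horizontal axis), with 95% confidence intervals as lines, for the tested expansins (left) and the tested XTH genes (right), ordered by fold change. Members are orange, other genes grey, and filled points have an adjusted p under 0.05; the 4 tested EXPA members lie among the 7 lowest expansins, while XTH24 and XTH15 lie near opposite ends of the XTH genes.

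The order of levels among the members, compared per length in RPKM, was led by XTH24 in both genotypes. In DD25::IaaH seeds XTH24 was followed by XTH22 at 30.2 ± 9.16 RPKM, then by EXPA4 and EXPA10, whose ranges overlapped, and by EXPA5. EXPA1 and XTH4 came next with overlapping ranges at 3.67 and 3.52 RPKM, above XTH5 at 1.89 RPKM, XTH15 at 0.602 RPKM and EXPA8 at 0. In WT seeds EXPA4, XTH22 and EXPA10 followed XTH24 at 28.5, 26.8 and 22.2 RPKM, and the ranges of neighbours in this order overlapped. EXPA5 and EXPA1 came after them, each apart from its neighbours, and XTH15, XTH5 and XTH4 shared 1 range between 0.920 and 3.26 RPKM. The mean level of XTH24 stood above 97.5% of tested genes in DD25::IaaH seeds and above 93.4% in WT seeds. EXPA4 stood above 59.3% of tested genes in DD25::IaaH seeds and above 76.4% in WT seeds, and XTH15 above 4.08% in DD25::IaaH seeds and above 18.8% in WT seeds.

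Reads of near-identical copies could be split wrongly between genes, and the members were compared with their families for this. In coding sequence the closest relatives were EXPA16 for EXPA4 (80.2% identity), XTH16 for XTH15 (80.8%) and XTH23 for XTH22 (79.8%). XTH4 and XTH5 were each other's closest relatives at 71.7%. EXPA10 was the closest relative of EXPA1, also at 71.7%, while EXPA10 itself was closest to EXPA15 (74.1%). The closest relative of XTH24 was XTH22, at 70.2%. No member shared a stretch of 125 bases, the length of a read, with a gene elsewhere in the genome. XTH15 overlaps AT4G14120, a gene of unknown function on the opposite strand, over 23.8% of its 125-base stretches. AT4G14120 had 2.39, 3.03 and 2.74 RPKM in DD25::IaaH 1, 2 and 3, against 2.76, 3.72 and 4.56 RPKM in WT 1, 2 and 3 (log2 fold change -0.36, limma adjusted p = 0.347). Whether reads were counted by strand is not given in the sources used here, so some reads given to XTH15 may come from AT4G14120.

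The members lie on all 5 chromosomes, and positions are from RefSeq's TAIR10.1. XTH24 lies on chromosome 4 and has XTH18 and XTH19 within 4 coding genes. XTH22 has 2 exons at chr5:23307006-23308680 and lies in a cluster with XTH12, XTH13 and XTH25. The neighbours of XTH24 were low in both genotypes: XTH18 averaged 1.81 RPKM in DD25::IaaH seeds and 0.748 RPKM in WT seeds, and XTH19 averaged 0.744 RPKM in DD25::IaaH seeds and 1.10 RPKM in WT seeds. Neither was called (limma adjusted p = 0.140 and 0.630). EXPA4 has 3 exons at chr2:16543832-16545746, EXPA10 has 4 at chr1:9259432-9261313 and XTH15 has 3 at chr4:8137020-8138392. None of the alpha-expansin members has another expansin within 4 coding genes.

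Some loci were nearly absent from the DD25::IaaH libraries, with 19, 26, 24 and 12 of them on chromosomes 2, 3, 4 and 5 and none on chromosome 1. These 81 loci had at least 3 RPKM in every WT library and, in every DD25::IaaH library, under 1 part in 15 of the lowest WT value. The locus ranges that they span held 7216 tested genes, of which 8.74% were called higher and 11.9% lower. Of the 13664 tested genes outside them, 7.99% were called higher and 3.99% lower. The inside counts include the 81 loci, which were picked for their low DD25::IaaH values. Part of the share called lower inside therefore follows from that choice, which concerns 81 of the 7216 genes. The share without these 81 was not computed. EXPA5, XTH4, XTH15, XTH22 and XTH24 lie inside the ranges, while EXPA1, EXPA4, EXPA8, EXPA10 and XTH5 lie outside. The labels name Col-0 for both genotypes, and whether the background was the same in these ranges was not tested. Nor was the part of the ranges in the values of the 5 members inside.

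Set against the rest of their families, the EXPA members held a small share of alpha-expansin RNA in DD25::IaaH seeds. They made up between 3.67% and 4.62% of the summed RPKM of 26 alpha-expansins in DD25::IaaH seeds and between 42.7% and 53.3% in WT seeds. The sum of all 26 was 1274, 919 and 1094 RPKM in DD25::IaaH 1, 2 and 3, against 164, 159 and 146 RPKM in WT 1, 2 and 3. EXPA21, EXPA23 and EXPA25, neighbours on chromosome 5, held between 89.6% and 91.6% of it in DD25::IaaH seeds and between 11.3% and 18.4% in WT seeds. EXPA21 reached 285 ± 28.4 RPKM in DD25::IaaH seeds, against 6.57 ± 0.730 RPKM in WT seeds (log2 fold change 5.33 ± 0.13 SE, limma adjusted p = 2.72e-07). It overlaps AT5G39250 on the opposite strand over 19.6% of its 125-base stretches. AT5G39250 had between 16.7 and 20.5 RPKM in DD25::IaaH seeds and between 15.6 and 18.6 RPKM in WT seeds. Some reads given to EXPA21 may therefore come from AT5G39250, which matters most for its low WT level. EXPA23 and EXPA25 have 97.1% of their coding bases in common and share 25.1% and 24.8% of their 125-base stretches, so that the split of reads between them is uncertain. The smaller share of the members in DD25::IaaH seeds therefore comes with a higher family sum as well as with lower levels of their own.

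**Figure D3:**
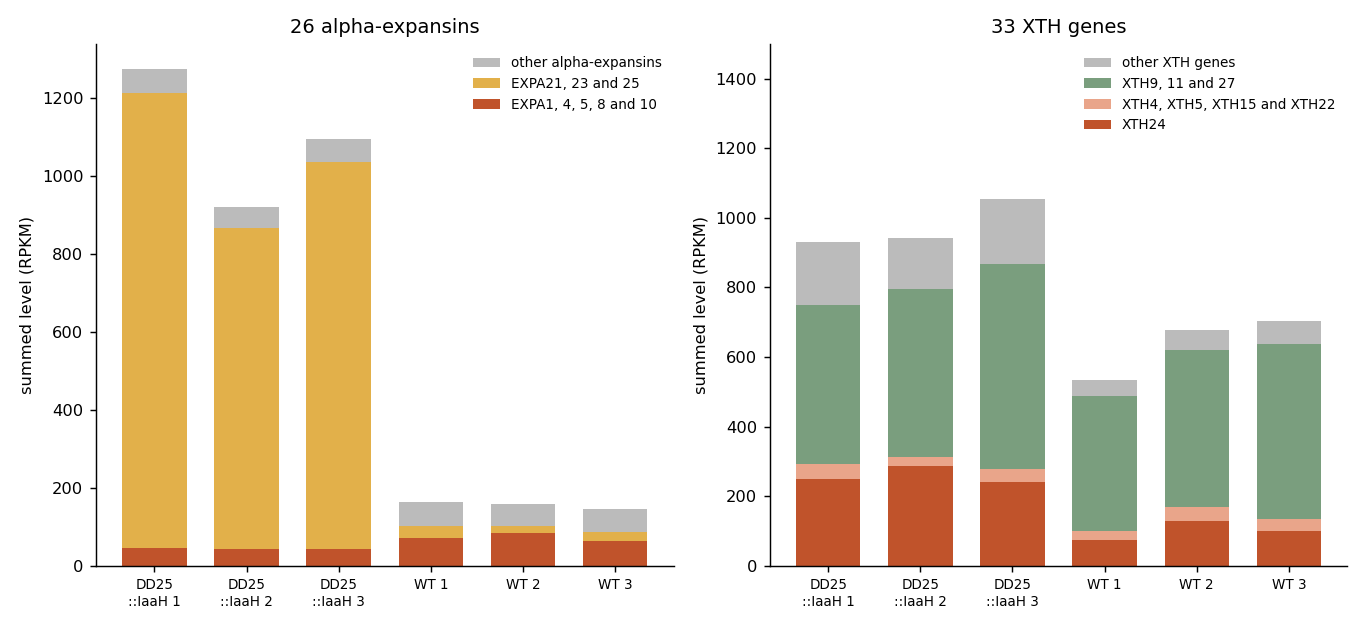
Summed level in RPKM (vertical axis, from 0) of 26 alpha-expansins (left) and 33 XTH genes (right) in each DD25::IaaH library and each WT library, stacked by gene group. The EXPA members (orange) hold between 42.5 and 46.7 RPKM under a large EXPA21, EXPA23 and EXPA25 share in the DD25::IaaH libraries and between 62.2 and 84.5 RPKM in the WT libraries; XTH24 (orange, right) is taller in all DD25::IaaH libraries.

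XTH24 made up between 22.8% and 30.3% of the summed RPKM of 33 XTH genes in DD25::IaaH seeds and between 13.6% and 19.1% in WT seeds. That family sum was 931, 943 and 1054 RPKM in DD25::IaaH 1, 2 and 3, against 533, 678 and 703 RPKM in WT 1, 2 and 3. The difference between the mean levels of XTH24 was the largest in RPKM of any XTH gene, although XTH1 and XTH32 had larger fold changes. XTH1 reached 72.8 ± 14.9 RPKM in DD25::IaaH seeds, against 1.31 ± 1.17 RPKM in WT seeds (log2 fold change 5.52, limma adjusted p = 3.91e-05). XTH27 was the highest XTH gene, at 339 ± 65.3 RPKM in DD25::IaaH seeds and 219 ± 78.5 RPKM in WT seeds (log2 fold change 0.67, limma adjusted p = 0.101), and it was called without WT 3 (adjusted p = 0.00424). By mean level XTH27 alone stood above XTH24 in DD25::IaaH seeds, whereas XTH27, XTH11 and XTH9 had higher means in WT seeds, XTH11 and XTH9 with ranges that overlapped that of XTH24.

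Counted over lists, 4 of the 17 tested other expansins were called higher and 2 lower, with a median log2 fold change of -0.01. Of the 15 tested other XTH genes, 3 were called higher and 1 lower, with a median of 0.40. These counts are to be set beside 8.25% called higher and 6.72% called lower over all tested genes. EXPB4, a beta-expansin, was called higher beside EXPA21, EXPA23 and EXPA25, at 9.82 RPKM in DD25::IaaH seeds and 0.475 RPKM in WT seeds. The expansins called lower, EXPB3 (log2 fold change -0.72, limma adjusted p = 0.0153) and EXLB1 (-1.28, adjusted p = 0.0251), were named after their values were seen. XTH30 was called higher at 61.3 RPKM in DD25::IaaH seeds, against 34.1 RPKM in WT seeds, and XTH9, the partner of XTH4 in xylem walls, was called lower at 60.1 RPKM in DD25::IaaH seeds, against 100.7 RPKM in WT seeds. The third XTH gene called higher was XTH32, at 17.5 RPKM in DD25::IaaH seeds and 0.680 RPKM in WT seeds. Single libraries ended some of these calls when left out: DD25::IaaH 1 or WT 1 for XTH9 and EXPB3, and DD25::IaaH 2, DD25::IaaH 3, WT 1 or WT 2 for XTH30 and EXLB1.

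Genes that make or trim the substrate of the XTH enzymes were counted in the same fit. Of 14 tested genes of xyloglucan synthesis, 1 was called higher and 0 lower by limma (2 had an unadjusted p under 0.05, and limma voom also called 1 and 0), with a median log2 fold change of -0.17. The called gene was XLT2, a xyloglucan galactosyltransferase, at 41.4 RPKM in DD25::IaaH seeds and 28.6 RPKM in WT seeds (log2 fold change 0.52, limma adjusted p = 0.0314), and 8 of the 16 alternatives ended this call, among them the fits without DD25::IaaH 2, DD25::IaaH 3, WT 1 or WT 2. Of 4 genes of xyloglucan trimming, 2 were called lower. The counts of both lists are to be set beside 8.25% called higher and 6.72% called lower over all tested genes. XYL1, an alpha-xylosidase that removes xylose from xyloglucan, had 79.6 RPKM in DD25::IaaH seeds and 122 RPKM in WT seeds (log2 fold change -0.62, limma adjusted p = 0.00967). The other was the glycosyl hydrolase gene AT5G20950, at 46.4 RPKM in DD25::IaaH seeds and 64.5 RPKM in WT seeds, whose call was lost in 6 of the 16 alternatives, among them the fits without DD25::IaaH 1, DD25::IaaH 3 or WT 2.

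Proton pumps of the plasma membrane acidify the wall in which expansins act. Of the 11 AHA pump genes 8 were tested and 0 were called by limma, beside 15% called in either direction over all tested genes. An unadjusted p under 0.05 was found for 3 of them, and limma voom called 1 higher, AHA10 (adjusted p = 0.0361). AHA1, the most abundant pump gene, had 139 ± 16.9 RPKM in DD25::IaaH seeds and 105 ± 17.8 RPKM in WT seeds (log2 fold change 0.41, limma adjusted p = 0.116). Without WT 3, AHA10, AHA3 and AHA1 were called higher (adjusted p = 0.00451, 0.00731 and 0.0272). At which membrane each pump acts, and whether it acidifies the wall, was not tested, for AHA10 or for the others. The 6 genes of the SAUR19 subfamily, small auxin-induced proteins that keep the pumps active, summed to at most 1.91 RPKM in any library and none reached the minimum level for testing.

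**Figure D4:**
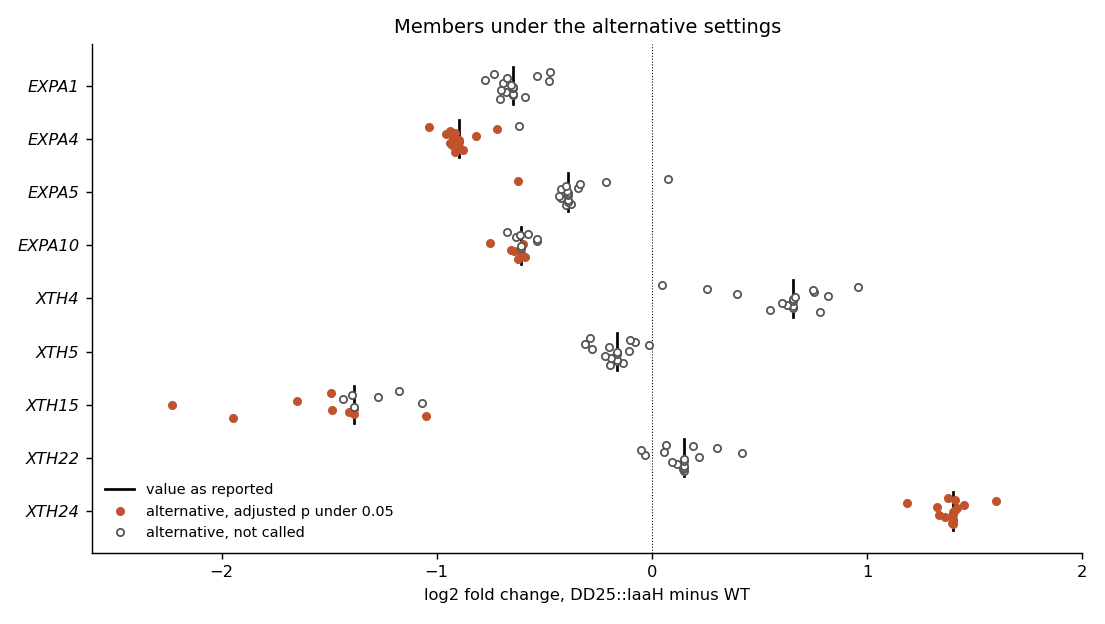
Log2 fold change, DD25::IaaH minus WT (horizontal axis), of the 9 tested members under each alternative setting (points, spread vertically to be visible) and as reported (black bars). Filled orange points have an adjusted p under 0.05 and open points do not; XTH24 is filled throughout, EXPA4 in all but 1 of 16 alternatives, and EXPA10 and XTH15 are filled in 8 of 16 and 9 of 15.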

How the data were processed

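RNA was measured in 6 libraries of whole seeds, 3 DD25::IaaH and 3 WT. Reads were 125 bases long and paired, per the labels' protocols. TAIR10 was the build and TopHat2 2.1.0 a tool named in the submitters' processing notes. What the authors deposited are RPKM values, normalised for gene length and library size. Their own test, DESeq per the labels' protocols, was not used here, and neither counting tool nor strand setting is given in the sources used here. The transgene itself was not analysed here.

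Genes averaging 0.5 RPKM or more were kept, and log2(RPKM + 0.5) was fitted with limma 3.58.1 in R 4.3.3 (eBayes with a trend, genotype as the only term). Tests were two-sided with Benjamini-Hochberg adjustment over all 20880 genes. Log2 fold changes are on this scale and understate the change of low genes. Figures were drawn with matplotlib 3.10.9. The fit was also run on simulated counts in which libraries differed only by depth, planted changes and random scatter. That run cannot show how the fit handles differences among the WT libraries, and its outcome is not used here.

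Whole reads and depths, 6.50 to 17.8 M reads (M for mega), were rebuilt from the steps of the deposited RPKM values. In every library more loci had 2 reads than 1, so mates appear to have been counted separately and counting error is larger than the read numbers imply. Limits at 3 reads and intervals cover counting error or the spread between these libraries only.

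Names and positions came from RefSeq's TAIR10.1, which 32835 of the 33323 loci matched by identifier. Identity counts matching bases of a global alignment over the longer coding sequence, aligned with Biopython 1.88. The upstream window of 1 member is not reported here. Members and lists were chosen with earlier results of these data known. All 10 members were named. Of each other list the rule named up to 4 tested genes in order of adjusted p and the gene with the highest mean RPKM. The 16 alternatives changed the pseudocount, filter, scaling, variance trend, blocking or count model, or left out libraries.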

Additional observations from a re-analysis of the deposited data

How the results depend on the processing

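Of the 9 tested members, XTH24 kept its direction and call under all 16 alternatives, and EXPA1, XTH4 and XTH5 kept their direction and stayed uncalled. EXPA4 fell short without WT 1 and WT 2 together (-0.62, adjusted p = 0.196). Leaving out 1 library at a time moved the log2 fold change of EXPA10 between -0.75 and -0.53, of XTH15 between -1.65 and -1.07, of EXPA5 between -0.62 and -0.21 and of XTH22 between -0.050 and 0.42. EXPA10 missed the threshold without a variance trend (-0.61, adjusted p = 0.0566) and when both WT 1 and WT 2 were left out (-0.67). XTH15 missed it without WT 1 and WT 2 together (-1.17), and it had no value with a minimum of 2 RPKM, which its mean does not reach. Without WT 1 and WT 2 together EXPA5 reversed to 0.075. XTH22 reversed to -0.030 without DD25::IaaH 1 and to -0.050 without WT 1. The cause of these moves was not tested. A lone WT library is then assumed to vary like the DD25::IaaH libraries.

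Replicate numbers did not pair the libraries: deviations from the group means correlated at -0.08, -0.03 and -0.10 for the same-numbered libraries 1, 2 and 3. With the replicate number as a block, 1368 genes were higher and 1061 lower, EXPA10 (-0.61, adjusted p = 0.0668) and XTH15 (-1.39, adjusted p = 0.0567) were not called, and the number of other expansins called lower was 1, EXPB3 being lost (adjusted p = 0.0511). XLT2 (adjusted p = 0.0764) and AT5G20950 (adjusted p = 0.0743) were also lost under the block, and XTH27 was called higher (adjusted p = 0.0354).

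Over all genes, 1723 were called higher and 1404 lower. Without single libraries these counts ranged from 1015 to 2227 and from 807 to 1918. Without WT 1 and WT 2 together they were 488 and 302. With quantile scaling 48.0% of calls were higher, against 55.1% as reported. Leaving out 1 library gave between 0 and 2 other expansins called lower, between 2 and 5 other XTH genes called higher and between 0 and 1 called lower. Without WT 1 and WT 2 together there were 0 other expansins and 0 other XTH genes called lower. Among the other named genes, AXY8 reversed to -0.031 without WT 1, where leaving out 1 library gave values up to 0.43, and to -0.20 without both WT 1 and WT 2, while BGAL10 reversed to 0.035 and AHA2 to -0.029 without that pair. The alternatives could not separate levels near the limit of 3 reads, such as EXPA8 and XTH15 in DD25::IaaH seeds.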

Other observations

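The 3 alpha-expansins that dominated the family sum in DD25::IaaH seeds alternate on chromosome 5 with 3 that were close to silent. Along RefSeq's TAIR10.1 the genes lie on the minus strand in the order EXPA21, EXPA22, EXPA23, EXPA26, EXPA25 and EXPA24, between chr5:15726243-15727458 for EXPA21 and chr5:15739032-15740605 for EXPA24. EXPA23 averaged 299 ± 73.2 RPKM in DD25::IaaH seeds, against 7.18 ± 1.79 RPKM in WT seeds (SD, n = 3 each). EXPA25 averaged 411 ± 72.8 RPKM in DD25::IaaH seeds, against 10.1 ± 4.89 RPKM in WT seeds. EXPA22, EXPA24 and EXPA26 had at most 0.568 RPKM in any library and were not tested. EXPA22 and EXPA26 share 14.9% and 15.2% of their 125-base stretches with each other and none with EXPA21, EXPA23 or EXPA25. None of the 10 members lies in this cluster. XTH24, the member called higher, had a log2 fold change of 1.40, against 5.33, 5.28 and 5.36 for EXPA21, EXPA23 and EXPA25.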
